A study of Mus musculus with 6 samples.

Results

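Small RNA was profiled in mouse prefrontal cortex, and 33 of the 1189 entries listed had a running number in place of a miRBase name. These 33 numbered entries are described here. They were taken as all rows whose name, without the species prefix, did not come from miRBase, whatever their values. Their numbers lie between 1 and 41, and each is called here by its number, such as entry 8. Of the 33 rows, 16 had exactly the same values as at least 1 other numbered row in all 6 libraries. Rows with identical values were counted as 1, which left 23 distinct entries out of 1179. None of the 23 had the same reads as a miRBase entry.

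The libraries came from male wild type C57BL/6 mice aged 18 months. The 3 mice of the PND group (postoperative neurocognitive disorder) had 30 min of 1.5% isoflurane in oxygen and then an exploratory laparotomy of 30 min under isoflurane, with lidocaine cream and povidone iodine on the incision. The 3 mice of the CON group had no anesthesia and no operation, so anesthesia, surgery and wound care cannot be told apart. Tissue from both groups was collected after the last behavioral test, under deep isoflurane and after perfusion with saline. The values are CPM, that is, an entry's reads divided by the reads of its library and multiplied by 1000000. Each value was a whole multiple of the value of 1 read, so the reads behind it could be given. The PND libraries were deeper, with 17600785 to 19471251 reads, than the CON libraries, with 14849471 to 16093488 reads. Here the reads or depth of a library mean the total behind its CPM values. This total was within 8 to 27 reads of the reads on the listed entries, and the number of reads sequenced was not used here.

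A microRNA is a short RNA cut from a hairpin precursor by the enzymes Drosha and Dicer, after which it guides Argonaute proteins to partly complementary mRNAs. miRBase is the registry that gives such RNAs their names once a hairpin and its mature arms have been described. Programs that search small RNA reads for unregistered hairpins return candidates under a running number, and such candidates can also be fragments of other RNAs or copies of one sequence at several places of the genome. No function is known for an entry under its number alone. The sequences and genome positions of the 33 entries were not used here, and the program that listed them is not given in the sources used here.

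Among these entries, 1 was of moderate level and present in every mouse, and 5 were scarce but also present in every mouse. These 5 are called steady here. The other 17 entries were listed in some mice and at 0 in others. Entries 5 and 36 passed an adjusted p of 0.05 between PND and CON under some settings and tools and not under others, and no other numbered entry did. The differences with the smallest p-values belonged to entries that were at 0 in CON mice, and a 0 did not have the same meaning for numbered entries as for miRBase entries, as described next.

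No numbered entry had a value between 1 and 9 reads. Of the 198 values of the 33 rows, 95 were 0 and 103 were 10 reads or more. Over the 23 distinct entries, 66 of 138 values were 0 and 72 were 10 reads or more, and 38 of these 72 lay between 10 and 19 reads. Among the miRBase entries, by contrast, 2172 of 6936 values (31.3%) lay between 1 and 9 reads, and the smallest value above 0 was 1 read. When the miRBase entries were limited to those with a highest library of 10 to 129 reads, the range of the numbered entries other than entry 8, there were 307, and 137 of them had at least 1 value between 1 and 9 reads. Of the values of these 307 entries, 21.7% lay between 1 and 9 reads and 0.923% were 0, against 47.8% at 0 for the distinct numbered entries. A 0 of a numbered entry can therefore stand for any number of reads from 0 to 9 as far as the values show. No detection limit was derived from it. Below, the fold changes of entries 1 and 3 and of the 9 entries listed in a single library are given with the 0 kept only. So are the sum over all distinct entries and the fits with a mouse left out. The calls of limma, edgeR and DESeq2, the other sums and the fold changes of entries 5, 6, 12, 32 and 36 are given both with the 0 kept and with the 0 set to 9 reads. In this setting, 9 reads were worth 0.559 to 0.606 CPM in the CON libraries and 0.462 to 0.511 CPM in the deeper PND libraries. By itself it lowers PND against CON for any entry with at least as many 0 values in CON as in PND. For entries 17 and 18, at 0 in every PND mouse and listed in 1 CON mouse, it does the reverse.

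**Figure D1:**
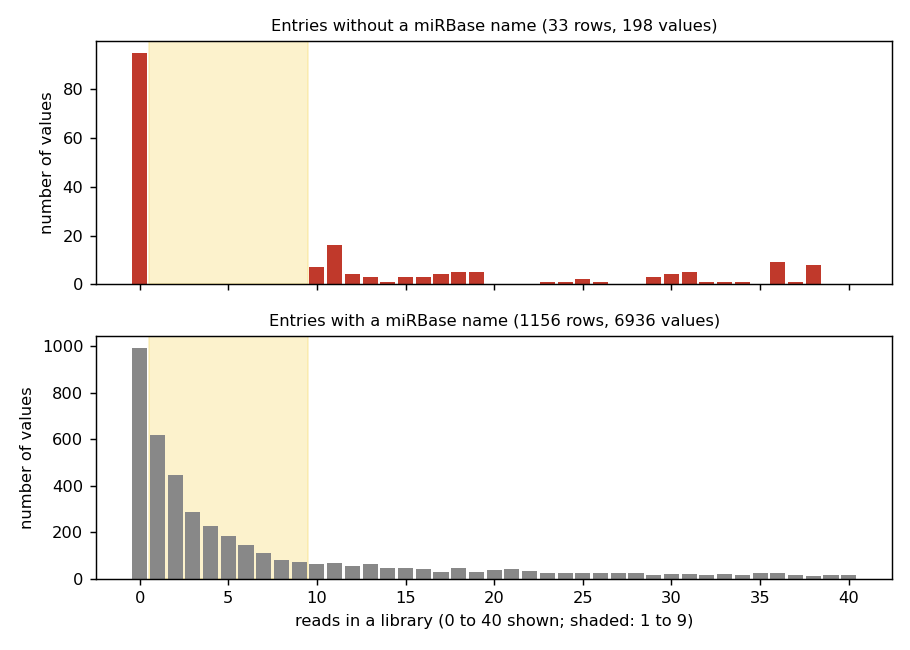
Number of values (vertical axis) at each read number from 0 to 40 (horizontal axis), for the 33 rows without a miRBase name (top) and the 1156 rows with one (bottom); the shaded range is 1 to 9 reads. The top panel has 95 values at 0 and none in the shaded range, where the bottom panel has 2172.

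A level of 10 reads, the smallest seen for a numbered entry, was worth less in the deeper PND libraries than in the CON libraries. It corresponded to 0.514, 0.568 and 0.565 CPM in PND mice 1, 2 and 3, and to 0.655, 0.673 and 0.621 CPM in CON mice 1, 2 and 3. As a level, 10 reads was thus higher in every CON library than in every PND library.

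Of the 23 distinct entries, 6 were listed in all 6 libraries, 2 in 5, 1 in 4, 3 in 3, 2 in 2 and 9 in a single library. The share listed in all libraries was 26.1%, against 69.5% of the miRBase entries and 47.9% of the 236 late-numbered miRBase entries from miR-6896 to miR-7094, most of which are scarce. These shares use unlike limits, since the numbered entries had no value under 10 reads. At a limit of 10 reads in every library, the shares of all entries were 26.1%, 48.4% and 17.8%. Among entries that reached 10 reads in at least 1 library (23 numbered, 698 miRBase and 72 late-numbered entries), 26.1%, 80.2% and 58.3% reached 10 reads in all 6. In these same entries, 10 reads were reached in a single library by 39.1%, 5.44% and 11.1%. The median of the mean level over 6 mice was 0.327 CPM for the distinct numbered entries, 0.930 CPM for the miRBase entries and 0.150 CPM for the late-numbered ones. Values under 10 reads, 0 included, made up 47.8% of the numbered, 45.6% of the miRBase and 75.4% of the late-numbered values.

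**Figure D2:**
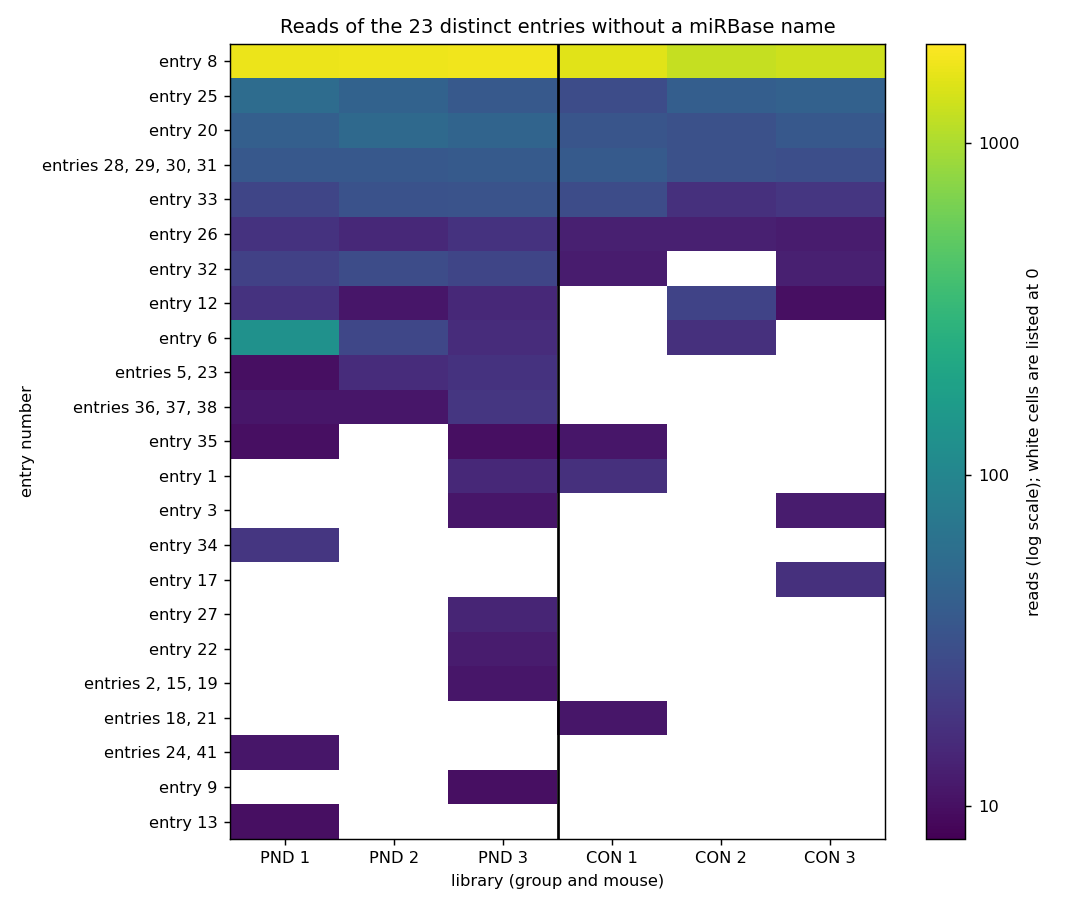
Reads of the 23 distinct entries (rows) in the 6 libraries (columns), on a logarithmic color scale, with white cells for a value of 0; rows are sorted by the number of libraries in which an entry is listed, and identical rows share a label. Entry 8 stands above all others with 1225 to 1775 reads, and 9 entries at the bottom are listed in 1 library each.

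Entry 8 was the only abundant member. PND mice 1, 2 and 3 had 1698, 1721 and 1775 reads of it, and CON mice 1, 2 and 3 had 1572, 1225 and 1322, which is 87.2, 97.8 and 100.2 CPM against 102.9, 82.5 and 82.1 CPM. Its mean level of 92.1 CPM ranked 202 among the 1189 rows, and it held between 80.2% and 89.0% of the summed level of the distinct entries in each mouse. CON mouse 1 had the highest level and CON mice 2 and 3 the lowest, so the groups overlapped. The means were 95.1 ± 6.92 CPM in PND and 89.2 ± 11.9 CPM in CON (SD, n = 3 each). limma gave a log2 fold change of 0.10 with a standard error of 0.14 and a Benjamini-Hochberg adjusted p of 0.85. The difference of the means was smaller than the SD of either group, and the two-sided exact permutation p was 0.6. The sign of the fold change turned under other scalings, for example to -0.0223 with TMM (trimmed mean of M values) factors. The level of entry 8 varied little, with a coefficient of variation of 10.1% over the 6 mice. The median coefficient of the 82 miRBase entries within 2-fold of its mean reads was 14.8%.

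The other 5 entries listed in every library were entries 20, 25, 26, 28 and 33. Entry 28 appeared 4 times, since entries 29, 30 and 31 had the same values in all 6 libraries. Its reads were 36, 36 and 38 in PND mice 1, 2 and 3 and 38, 31 and 30 in CON mice 1, 2 and 3, a range from 1.85 to 2.49 CPM. Its highest level was in CON mouse 1, its lowest was in PND mouse 1, and its groups overlapped. The means were 2.01 ± 0.151 CPM in PND and 2.15 ± 0.316 CPM in CON (SD, n = 3 each).

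For entry 20, PND mice 1, 2 and 3 gave 42, 53 and 47 reads and CON mice 1, 2 and 3 gave 34, 31 and 36. As levels these were 2.16, 3.01 and 2.65 CPM against 2.23, 2.09 and 2.24 CPM, so that PND mouse 1 lay within the CON range and the other PND mice above it. For entry 25, the PND mice gave 56, 45 and 37 reads and the CON mice 29, 41 and 44, with the lowest level, 1.90 CPM, in CON mouse 1 and the highest, 2.88 CPM, in PND mouse 1. Entries 20 and 25 were close to each other in mean level, at 2.40 and 2.49 CPM, and differed in which mice were high.

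For entry 33, the reads were 25, 32 and 33 in PND and 29, 17 and 19 in CON, in the order of the mice. CON mouse 1 had its highest level, 1.90 CPM, and CON mice 2 and 3 its lowest, 1.14 and 1.18 CPM. Entry 26 was the scarcest of the steady entries, with 18, 15 and 18 reads in PND and 13, 13 and 12 in CON. Its level lay between 0.746 and 1.02 CPM, and PND mouse 2, at 0.852 CPM, lay below CON mouse 2, at 0.875 CPM, so the groups overlapped by a narrow margin.

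For these 5 entries the scatter over the 6 libraries was close to counting error. The chi-square of the reads against equal levels, divided by its degrees of freedom, is near 1 where counting error alone is at work. It was 0.155 for entry 26, 0.427 for entry 28, 0.931 for entry 20, 1.06 for entry 25 and 1.41 for entry 33. Among the 93 miRBase entries of the same mean reads that also had at least 10 reads in every library, the median was 1.64, with an interquartile range of 0.911 to 2.41. All 5 values were below this median. Those of entries 26 and 28 were below the interquartile range, and those of entries 20, 25 and 33 lay within it. The coefficients of variation ran from 10.2% (entry 26) to 23.7% (entry 33), against a median of 23.8% for these 93 miRBase entries. For entry 8, whose counting error is far smaller, the ratio was 15.1, against a median of 30.3 for the miRBase entries of like level. Reads without molecular identifiers are not independent molecules, so these ratios describe the libraries only.

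Of the 6 entries listed in every library, 5 had a positive log2 fold change, and the 6 values ran from -0.06 (entry 28) to 0.17 (entry 20), with a median of 0.09. The median over all 1179 entries tested was 0.05. None of the 6 reached an unadjusted p under 0.05 in limma, and their exact permutation p-values (two-sided, with 0.1 as the smallest possible) were 0.6 for entry 8, 0.3 for entry 20, 0.9 for entry 25, 0.2 for entry 26, 0.6 for entry 28 and 0.4 for entry 33. The PND and CON means were 2.61 ± 0.429 and 2.18 ± 0.0832 CPM for entry 20, 0.931 ± 0.0822 and 0.824 ± 0.0690 CPM for entry 26 and 1.66 ± 0.322 and 1.41 ± 0.425 CPM for entry 33 (SD, n = 3 each). For entry 25 they were 2.51 ± 0.396 and 2.46 ± 0.490 CPM. The ranges of the groups overlapped for each of these entries. The sign of entry 25 also turned with TMM factors, to -0.0662, and that of entry 28 turned without CON mouse 1, to 0.0178.

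**Figure D3:**
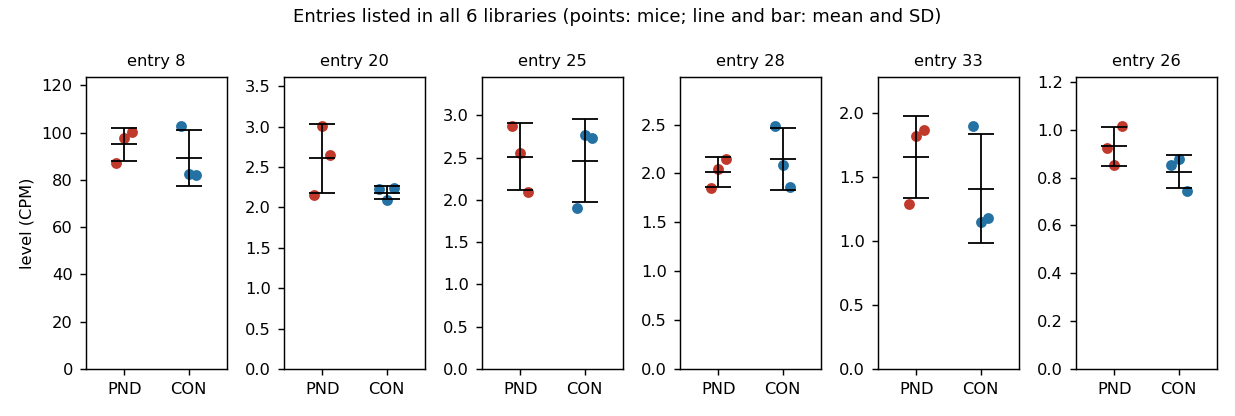
Level in CPM (vertical axes from 0, 1 scale per panel) of the 6 entries listed in all libraries, for PND and CON mice; points are mice and the black line and bar are the mean and SD of 3 mice. In all 6 panels the ranges of the groups overlap, and entry 8 lies between 82.1 and 102.9 CPM.

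PND was compared with CON for all 1179 entries with limma on log2(CPM + 1), a scale that understates the change of scarce entries. Of the 23 distinct numbered entries, 4 had an unadjusted p under 0.05, and all 4 were higher in PND (entries 5, 6, 32 and 36). Over all entries tested, 3.82% passed this limit with a higher level in PND and 1.10% with a lower level. On this scale, a log2 fold change above 1 together with an unadjusted p under 0.05 was reached by entry 6 alone. It was also the only one of all 1179 entries (0.0848%) in this fit, and the count differed with other scales and tools, as given in the closing sections. After Benjamini-Hochberg adjustment over all entries, limma called 0 of the 23 and 0% of all 1179, where 58 entries had an unadjusted p under 0.05. edgeR's quasi-likelihood test and DESeq2, both on the recovered reads, each gave 2 numbered entries with an adjusted p under 0.05, entries 5 and 36. limma also called both with all rows as deposited, a pseudocount of 0.1 or TMM factors, and entry 5 without PND mouse 1. With each 0 of a numbered entry set to 9 reads, limma gave 1 numbered entry with an unadjusted p under 0.05 (entry 32) and 0 with an adjusted p under 0.05. With the same setting, edgeR gave 1 (entry 32) and DESeq2 1 (entry 6) at the unadjusted limit, and both gave 0 numbered entries with an adjusted p under 0.05.

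Entries 5 and 36 were listed in every PND mouse and in no CON mouse. Entry 5, repeated as entry 23, reached 10, 16 and 18 reads in PND mice 1, 2 and 3, or 0.514, 0.909 and 1.02 CPM, and was at 0 in CON mice 1, 2 and 3. Entry 36, repeated as entries 37 and 38, reached 11, 11 and 19 reads in the same mice, or 0.565, 0.625 and 1.07 CPM, and was likewise at 0 in the CON mice. In both entries PND mouse 3 was highest and PND mouse 1 lowest, and the lowest value was at or next to the smallest value listed for any numbered entry.

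With the 0 kept, the log2 fold change of entry 5 was 0.85 (standard error 0.12, adjusted p = 0.0932 from limma, higher in 3 of 3 PND mice), and that of entry 36 was 0.80 (standard error 0.12, adjusted p = 0.0932 from limma, higher in 3 of 3 PND mice). The adjusted p was 0.0395 for both when the repeated rows were tested as separate entries. Over all alternatives it ranged from 0.000251 (edgeR, 0 kept) to 0.98 (DESeq2, 9 reads) for entry 5 and from 0.000327 to 0.98 in the same fits for entry 36. With 9 reads in place of each 0, the CON mice would have held up to 0.606 CPM, above the lowest PND mouse in both entries, and the groups would have overlapped. The log2 fold changes were then 0.18 (standard error 0.14) for entry 5 and 0.14 (standard error 0.13) for entry 36, both with an adjusted p of 0.77 from limma. With 9 reads in each CON library, the ratio of group means, PND over CON, was 1.39 for entry 5 and 1.29 for entry 36. These ratios are not lower bounds, since no detection limit was derived. The exact permutation p with the 0 kept was 0.1 for both (two-sided), the smallest possible. Both entries were listed through PND mice only, and any entry listed in every PND mouse and no CON mouse has this p. It therefore adds nothing to the listing, and the edgeR and DESeq2 calls with the 0 kept rest on the same values.

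Entry 32 was listed in 5 libraries. PND mice 1, 2 and 3 gave 23, 29 and 25 reads, or 1.18, 1.65 and 1.41 CPM. CON mice 1, 2 and 3 gave 12, 0 and 13 reads, or 0.786, 0 and 0.808 CPM. Every PND mouse was higher than every CON mouse, and this order did not depend on CON mouse 2, where 9 reads would be 0.606 CPM. Its log2 fold change in limma was 0.70 (standard error 0.24, adjusted p = 0.77) with the 0 kept and 0.48 (standard error 0.14, adjusted p = 0.77) with 9 reads in its place. Over all alternatives its adjusted p lay between 0.57 and 0.98. The unadjusted p was 0.0199 and 0.00935 in these limma fits, and the exact permutation p was 0.1 (two-sided), the smallest possible. Without any 1 of the PND mice the unadjusted p was over 0.05, between 0.0608 and 0.0777, while the log2 fold change stayed between 0.63 and 0.77. Without CON mouse 2, the library at 0, it was 0.42. The unadjusted p was also over 0.05 in edgeR (0.0623) and DESeq2 (0.0673) with the 0 kept. Of the differences among the numbered entries, this was the only one with groups apart whichever value stood for the 0.

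Groups apart with every PND mouse higher were found for 3 of the 23 entries (entries 5, 32 and 36) with the 0 kept, where 7.72% of all 1179 entries had this order. With 9 reads in place of a 0, it was 1 of 23. Every CON mouse was higher in 0 of the 23 entries, against 2.04% of all entries.

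Entry 6 had the largest log2 fold change of the 23 entries on the log2(CPM + 1) scale, and 1 mouse carried much of it. In edgeR and DESeq2, with the 0 kept, entries 5 and 36 had larger ones. PND mice 1, 2 and 3 gave 129, 26 and 16 reads, or 6.63, 1.48 and 0.903 CPM. In CON it was listed in mouse 2 alone, with 17 reads or 1.14 CPM. CON mouse 2 lay above PND mouse 3, so the ranges overlapped (two-sided exact permutation p = 0.2). The means were 3.00 ± 3.15 CPM in PND and 0.382 ± 0.661 CPM in CON (SD, n = 3 each). Its log2 fold change in limma was 1.36 (standard error 0.53, adjusted p = 0.77), and 0.75 without PND mouse 1. With 9 reads in place of each 0 it was 0.92 (standard error 0.47, adjusted p = 0.77). The adjusted p lay between 0.59 and 0.98 over all alternatives. The unadjusted p in limma was over 0.05 without PND mouse 1 (0.132), PND mouse 2 (0.0586), CON mouse 1 (0.154) or CON mouse 3 (0.156). With the 0 kept, it was also over 0.05 in limma without trend (0.0556), edgeR (0.150) and DESeq2 (0.244). With 9 reads in place of each 0 it was 0.0878 in limma and 0.153 in edgeR, but 0.00548 in DESeq2.

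PND mouse 1 also had the highest level of all 4 miRNAs taken as markers of red blood cells, which carry much miR-451a. It had 797 reads of miR-451a where the other 5 mice had 10 to 47, and 31 reads of miR-144-5p where the others had 0 to 4. The red blood cell list summed to 101.1 CPM in this mouse and to 31.9 to 54.7 CPM in the others, with 0 of the 4 markers at 0 in all libraries. Entry 13, entry 24 (repeated as entry 41) and entry 34 were listed only in this mouse, with 10, 11 and 19 reads. Whether red blood cells had a part in the levels of entries 6, 13, 24 and 34 was not tested.

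Entry 12 showed the reverse case, with the widest spread in the CON group. PND mice 1, 2 and 3 gave 18, 11 and 15 reads, and CON mice 1, 2 and 3 gave 0, 24 and 10. CON thus held both the highest level, 1.62 CPM in mouse 2, and a library at 0. The means were 0.799 ± 0.155 CPM in PND and 0.746 ± 0.815 CPM in CON (SD, n = 3 each), a difference smaller than either SD. The two-sided exact permutation p was 0.9. limma gave entry 12 a log2 fold change of 0.15 (standard error 0.31, adjusted p = 0.92), and -0.0743 with 9 reads in place of the 0.

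Among the entries listed in 2 or 3 libraries, entry 35 had 10 reads in PND mouse 1, 10 in PND mouse 3 and 11 in CON mouse 1. Entry 1 had 15 reads in PND mouse 3 and 17 in CON mouse 1, and entry 3 had 11 reads in PND mouse 3 and 12 in CON mouse 3. These 3 entries were found in both groups at a like number of reads, and in no group in every mouse. With the 0 kept, entry 1 had a log2 fold change of -0.06 and entry 3 of -0.04, with adjusted p-values of 0.97 and 0.98 from limma.

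The 9 entries listed in a single library had 10 to 19 reads there, with a median of 11. PND mouse 3 held 4 of them, namely entry 2 (repeated as entries 15 and 19), entry 9, entry 22 and entry 27, with 11, 10, 12 and 14 reads. PND mouse 1 held 3, CON mouse 1 held entry 18 (repeated as entry 21) with 11 reads, and CON mouse 3 held entry 17 with 17 reads. PND mouse 2 and CON mouse 2 held none. Entry 17, with 1.06 CPM, and entry 34, with 0.976 CPM, had the highest levels of this kind. The log2 fold change of each of the 9 rests on 1 mouse, and with the 0 kept these values ran from -0.35 (entry 17) to 0.33 (entry 34). Of the 6 identical sets of rows, 3 were of this kind, where equal values at 10 or 11 reads can also arise between different sequences.

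All 6 identical sets held more reads than any repeated miRBase rows, and the other 3 sets held the most. These 3 were entries 5 and 23 (44 reads over the 6 libraries), entries 36 to 38 (41 reads) and entries 28 to 31 (209 reads). They made up 9 of the 17 numbered rows with at least 40 reads, a limit that lies just under the smallest of the 3 totals. Of the 668 miRBase rows with at least 40 reads, 0 had the same reads as another miRBase row in every library, and the largest repeated miRBase rows had 6 reads in all. Counting the repeats raised the summed level of the numbered rows from 108.7 to 116.4 CPM in PND mouse 1 and from 94.1 to 99.7 CPM in CON mouse 3, for example.

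CON mouse 1 stood apart in miRNAs of epithelial and olfactory tissue, such as the miR-200 family. The 8 markers of this list summed to 1646 CPM in CON mouse 1 and to 67.0 to 197.6 CPM in the other mice, and 0 of the 8 were at 0 in all libraries. Entry 18 was listed only in this mouse, and entries 1, 8, 28, 33 and 35 had their highest level there. Entry 25 had its lowest level there, and of the entries listed in 4 or 5 libraries, entries 6 and 12 were at 0 there. For entries 8, 28 and 33 the next mouse was PND mouse 3, with 100.2, 2.15 and 1.86 CPM against 102.9, 2.49 and 1.90 CPM. The part of such tissue in these levels was not tested. White blood cell markers (3 of 3 listed) summed to 11.5 to 21.4 CPM in PND and 7.41 to 15.8 CPM in CON. Most of each sum was miR-142a-3p, and both it and miR-142a-5p had a higher range in PND. The range of miR-223-3p went the other way, with 1.44 to 2.03 CPM in PND and 1.77 to 2.42 CPM in CON. The neuronal markers miR-124-3p, miR-9-5p, miR-128-3p and miR-138-5p were abundant in every library and summed to between 279250 and 370685 CPM. In bulk tissue, fewer cells of a type and less RNA per cell cannot be told apart.

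Taking the entries together, more of them were listed in PND mice. PND mice 1, 2 and 3 had 15, 11 and 18 of the 23 distinct entries, and CON mice 1, 2 and 3 had 10, 8 and 10. Over the 3 mice of a group, 21 entries were listed in PND and 14 in CON, with 12 in both, 9 in PND only and 2 in CON only. The number listed was 14.7 ± 3.51 in PND and 9.33 ± 1.15 in CON (SD, n = 3 each), with no overlap. When reads were thinned to the smallest library and a minimum of 10 reads was applied again, the expected numbers were 10.6, 9.91 and 14.8 in PND and 9.92, 8 and 9.31 in CON, and PND mouse 2 then lay below CON mouse 1. The difference of the group means fell from 5.33 to 2.70 entries. Over all 1189 rows, PND mice 1, 2 and 3 had at least 1 read of 1030, 1033 and 1030 rows. CON mice 1, 2 and 3 had at least 1 read of 1006, 965 and 981 rows. The direction over all rows, which include the numbered ones, was thus the same. The limit there was 1 read, while no numbered entry had a value under 10 reads, so the sizes of the 2 differences cannot be compared.

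The summed level showed the same dependence. With the 0 kept, the sum over the distinct entries was 108.7, 113.3 and 119.9 CPM for PND mice 1, 2 and 3. It was 115.6, 94.2 and 94.1 CPM for CON mice 1, 2 and 3, and most of it came from entry 8. Entries 20, 25, 26, 28 and 33 together reached 9.09, 10.3 and 9.77 CPM in PND and 9.36, 8.96 and 8.76 CPM in CON, and the groups overlapped. The 17 entries not listed in every library reached 12.4, 5.28 and 9.94 CPM in PND and 3.34, 2.76 and 3.23 CPM in CON, with every PND mouse higher. Entry 6 alone held 6.63 CPM of the sum in PND mouse 1. With 9 reads in place of each 0, this sum was 16.1, 11.4 and 12.5 CPM in PND and 11.0, 11.9 and 10.5 CPM in CON, so that CON mouse 2 lay above PND mouse 2 and the groups overlapped. Without entry 8, the mean sum in PND was 1.56 times that in CON with the 0 kept and 1.14 times with 9 reads in place of each 0. No test was made over the members.

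**Figure D4:**
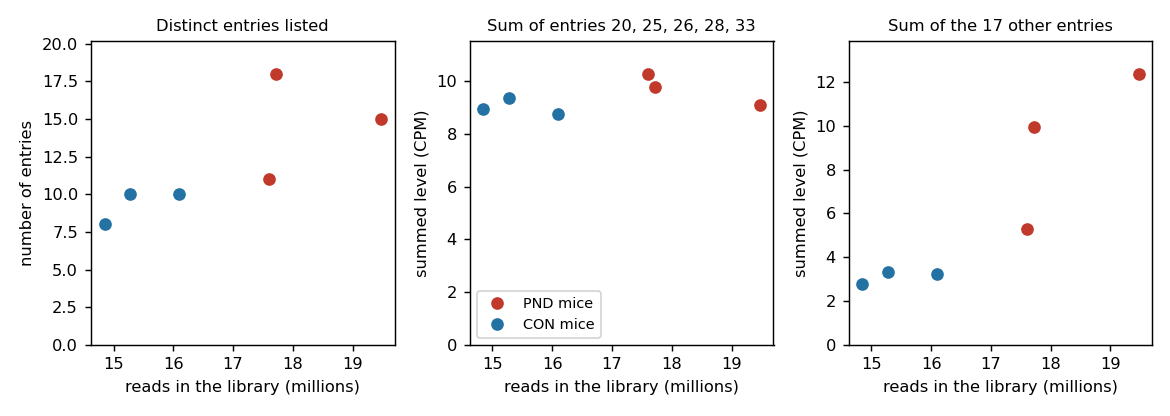
Number of distinct entries listed, summed level of the 5 steady entries other than entry 8, and summed level of the 17 entries not listed in every library (vertical axes, in entries or CPM, from 0), against the reads of the library (horizontal axes, in units of 1000000 reads); each point is a mouse. With each 0 kept, the left and right panels separate the groups, which also differ in depth, and the middle panel does not.

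The direction of the numbered entries as a list depended on the value used for a 0. With the 0 kept, 18 of the 23 entries had a positive log2 fold change, with a median of 0.17. With 9 reads in place of each 0, 10 of the 23 were positive and the median was -0.03, a setting in which each 0 stands for a higher level in CON than in PND. Of the miRBase entries, 752 of 1156 (65.1%) had a positive log2 fold change, with a median of 0.05.

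**Figure D5:**
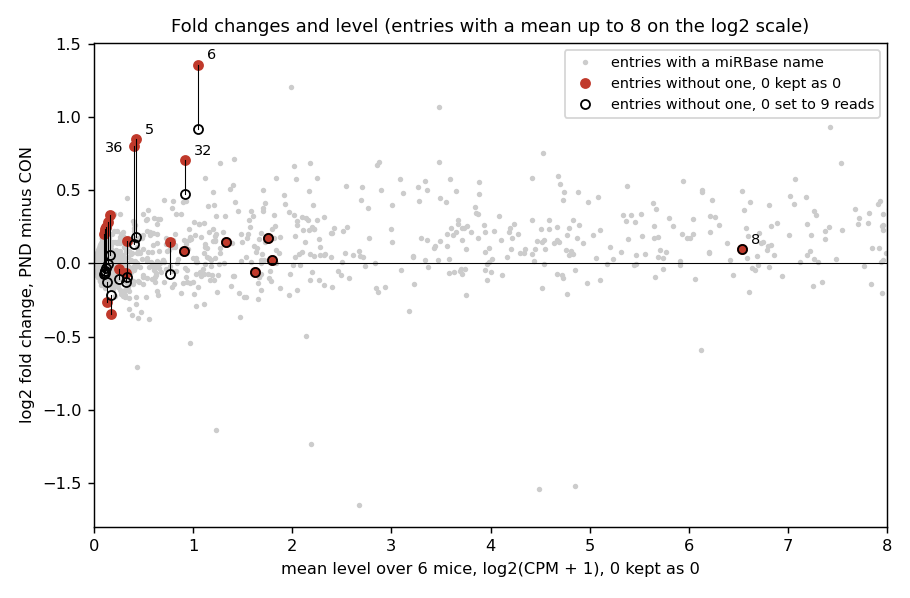
Log2 fold change of PND against CON on the log2(CPM + 1) scale (vertical axis) against mean level (horizontal axis), for miRBase entries (grey) and the 23 numbered entries with a 0 kept as 0 (red) and set to 9 reads (open circles, joined by a line). Entries 5 and 36 drop from 0.85 and 0.80 to 0.18 and 0.14, entry 32 drops from 0.70 to 0.48, and the 6 entries listed in every library do not move.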

How the data were processed

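Small RNA libraries of 3 PND and 3 CON mice were analysed, with 1 library per mouse. Per the study's methods, the authors filtered reads with fastx, kept clean reads by length, aligned them with Bowtie, took known miRNAs from miRBase positions, and scaled by TMM and library total. The processing notes name Bowtie 0.12.2 and the builds mm8 and mm9. The labels name a total RNA kit and the methods a small RNA kit. The deposited values are CPM (called TPM in the methods), and in every library 100% were whole multiples of 1 read (tolerance 0.01 reads).

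The members and lists were chosen with earlier results of these data known. Every distinct member with at least 10 reads in all was given with its values, which was each of the 23. limma 3.58.1 in R 4.3.3 (trend, no covariates) was fitted to log2(CPM + 1) of 1179 entries, with identical numbered rows kept once and Benjamini-Hochberg adjustment. Limits were an unadjusted p of 0.05 and a log2 fold change of 1. Exact permutation tests used scipy 1.17.1. Alternatives were all rows, a pseudocount of 0.1, a minimum of 10 reads in 3 libraries, TMM, no trend, edgeR 4.0.16, DESeq2 1.42.0, a replicate block and leaving out each mouse. Setting a 0 to 9 reads, the sum without entry 8, thinning with a minimum of 10 reads and, for the number of entries listed, the values with a mouse omitted were added after seeing the data. The scripts were tested on simulated data.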

Additional observations from a re-analysis of the deposited data

How the results depend on the processing

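Of the numbered entries, limma gave 4 with an unadjusted p under 0.05, 1 also past the 2-fold limit and 0 with an adjusted p under 0.05. The first count was 2 in edgeR, 2 in DESeq2, 1 with 9 reads for a 0 in limma, edgeR or DESeq2, and 2 to 4 with a mouse left out. The second was 3 with a pseudocount of 0.1, 2 in edgeR and in DESeq2, 0 without the trend and with 9 reads for a 0 in limma and edgeR, and 0 to 1 with a mouse left out. The third was 2 (entries 5 and 36) with all rows as deposited, a pseudocount of 0.1, TMM factors, edgeR and DESeq2, and 0 to 1 with a mouse left out, the 1 being entry 5 without PND mouse 1 (adjusted p = 0.0245). Under the replicate block the 3 counts were 4, 1 and 0. Same-numbered mice had correlations of -0.128, 0.122 and 0.508 in their deviations. Without the same values for differently numbered mice, these cannot decide whether the numbers pair the mice.

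Signs turned for entry 8 (-0.0223 with TMM, -0.0264 in edgeR, -0.0597 in DESeq2, and with 9 reads for a 0 -0.0287 in edgeR and -0.0548 in DESeq2), entry 12 (-0.0440 in edgeR, -0.15 in DESeq2, and with 9 reads for a 0 -0.0743 in limma, -0.36 in edgeR and -0.43 in DESeq2) and entry 25 (-0.0662 with TMM, -0.10 in edgeR, -0.14 in DESeq2, and with 9 reads for a 0 -0.10 in edgeR and -0.13 in DESeq2). With a mouse left out, entry 12 ran from -0.20 to 0.49, entry 25 from -0.10 to 0.11 and entry 28 from -0.12 to 0.0178. The cause was not tested. The log2 ratio of summed levels was 0.17, with 0.12 to 0.28 when a mouse was left out, 0.64 without entry 8 and 0.19 when each 0 was also 9 reads. The listed entries differed by 5.33 per mouse, by 3.67 to 7.17 with a mouse left out and by 2.70 after thinning with a minimum of 10 reads. Since 10 reads is the smallest value listed, depth limits what a 0 of these entries can show. With 3 mice a group an exact p cannot pass below 0.1.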

Other observations

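In all 6 files, 27 rows stand before a list sorted by name, and 9 of these 27 rows are numbered entries, which hold 6 distinct sets of values (entries 5, 6, 17, 32, 34 and 36). The other 24 numbered rows stand at their place in the sorted list. The reads of the rows listed fell short of the library total behind the CPM values by 8 to 27 reads per library.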
